A study of Mus musculus with 6 samples.

Results

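The AP-1 transcription factors were followed in satellite cells, the muscle stem cells that lie beneath the basal lamina of muscle fibres, from pharyngeal and from limb muscle. The members were the genes Fos, Fosb, Fosl1, Fosl2, Jun, Junb, Jund and Atf3, and every array probe whose platform gene symbol was one of these 8 names was taken. This gave 10 probes of 45281 on the array, for 7 of the 8 genes among 19057 named genes, and no probe used here was named for Fosl1 by symbol, Entrez identifier or RefSeq accession. Of the 10 probes, 9 passed the filter on dim values, which asked for a detection p-value under 0.05 on at least 3 of the 6 arrays, so that all 7 genes with a probe were tested. Expression was measured on Illumina MouseWG-6 v2.0 arrays in 3 pharyngeal and 3 limb pools of sorted myogenic cells from male C57BL/6 mice 8 to 10 weeks old, with the gastrocnemius and quadriceps as the limb muscles. The labels give no genotype change and no treatment for either group. A pool held 150000 to 200000 cells, and 10 to 30 mice were used per experiment, a number not given for each pool. A value is thus an average over animals and over whatever cells passed the sort, whose markers the sources used here do not name.

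AP-1 is a dimer of basic leucine zipper proteins. Fos proteins cannot pair with each other and bind DNA only with a Jun partner, whereas Jun proteins can also pair among themselves, and Atf3, a member of the ATF and CREB family, pairs with Jun proteins and with itself. Most of these genes are immediate early genes, which are induced within minutes by growth factors, stress and injury, and in satellite cells they are known to be induced by the enzymatic digestion of muscle that precedes sorting. Jund differs from them in being expressed at a steadier level in most cells.

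Satellite cell markers were present in both groups but not at equal levels. Of 10 such markers, all 10 passed the filter and 7 fell in pharyngeal pools (limma, adjusted p under 0.05), by log2 differences from -2.42 (Calcr) to -1.90 (Myf5). The summed normalized intensity of the 10 was 2687 to 2779 in pharyngeal and 5199 to 7439 in limb pools. Bright probes weigh most in such a sum, and Sdc4, among the brightest, differed by -0.06. Epithelial markers went the other way, with 6 of 12 tested markers higher and a summed intensity of 2729 to 8504 in pharyngeal against 662 to 905 in limb pools. Of these 6, Krt5, Krt8, Krt15 and Esrp1 were above background on at most 1 limb array and met the filter only through the pharyngeal arrays. The filter thus partly set this count, whereas Krt14 and Cdh1 were above background on all 3 limb arrays. Of 5 tested tenocyte markers 3 fell (377 to 421 against 1481 to 2645). Of the tested macrophage (5), endothelial (7), fibro-adipogenic (7) and pericyte and smooth muscle (7) markers none passed. At an unadjusted limma p under 0.05 the counts were 1, 3, 1 and 2 (20.0, 42.9, 14.3 and 28.6%), beside 20.3% of all genes tested. None of the 7 endothelial markers was higher in pharyngeal pools. Sums in pharyngeal against limb pools were 484 to 1064 against 188 to 365 for macrophage and 229 to 466 against 478 to 598 for endothelial markers. They were 3712 to 4529 against 4553 to 5649 for fibro-adipogenic and 7437 to 8082 against 7404 to 7559 for pericyte and smooth muscle markers. The probes of the leukocyte markers Ptprc and Itgam missed the filter. All arrays lay on 1 chip with the groups in separate blocks of positions, so that position and group cannot be told apart. Probes with a detection p-value under 0.05 numbered 20919 to 22793 per array.

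Of the 7 tested AP-1 genes, 1 differed between the groups. Junb was 2.63-fold lower in pharyngeal pools, while Fos, Fosb, Fosl2, Jun, Jund and Atf3 did not pass the threshold, an adjusted p of 0.05 over the 11262 genes tested. Over all genes tested, 3.34% passed in either direction and 1.62% were lower in pharyngeal pools, and nothing is read from the share of 1 call among 7 genes. The median difference of the 7 genes, pharyngeal minus limb, was -0.50 on the log2 scale, beside -0.06 over all genes tested. The groups did not overlap for 5 of the 7 genes, with 4 lower and 1 higher in pharyngeal pools, against 26.7% of all genes tested (15.0% lower and 11.7% higher).

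**Figure D1:**
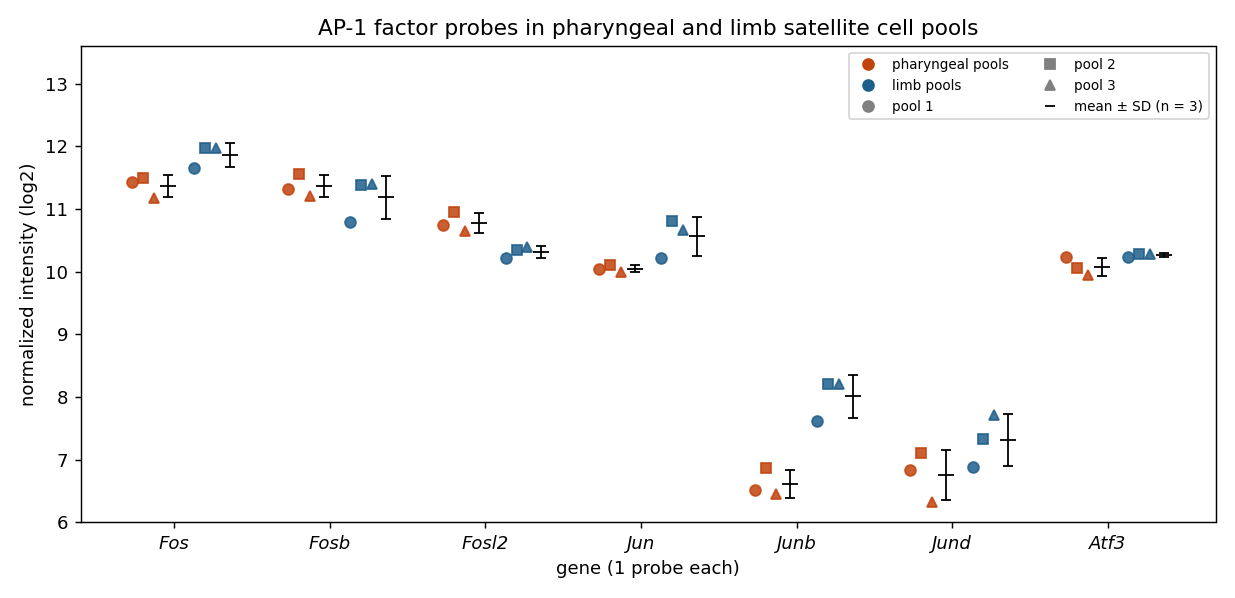
Normalized log2 intensity (vertical axis) of the probe that represents each of 7 AP-1 genes (horizontal axis) in 3 pharyngeal and 3 limb pools, with each pool as a symbol and the mean and SD (n = 3) as a black bar. The Junb symbols of the pharyngeal pools, 6.46 to 6.87, lie below those of the limb pools, 7.62 to 8.21; heights of different genes come from different probes and cannot be set against each other.

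The upstream sequences of 3 members are shown, Junb and Jun with lower and Fosl2 with higher values in pharyngeal pools. Of these only Junb passed the threshold. Fos and Atf3 were also lower without overlap, and their sequences are not shown. Each is the 250 bases before the annotated gene start, 5′ to 3′ on the gene's strand, from the RefSeq promoter table used here on GRCm38.p6, in which 7 of the 8 members, all but Fosl1, were matched. Junb lies on the minus strand (chr8:84978749-84978998), Jun on the minus strand (chr4:95052223-95052472) and Fosl2 on the plus strand (chr5:32136222-32136471). Capitals mark matches on either strand to TGANTCA, the AP-1 site, TGACNTCA, which covers the cyclic AMP response element and its Jun promoter variant, TGACG, a shorter core of that element that can lie within it, TATAAA or CCAAT.
Junb: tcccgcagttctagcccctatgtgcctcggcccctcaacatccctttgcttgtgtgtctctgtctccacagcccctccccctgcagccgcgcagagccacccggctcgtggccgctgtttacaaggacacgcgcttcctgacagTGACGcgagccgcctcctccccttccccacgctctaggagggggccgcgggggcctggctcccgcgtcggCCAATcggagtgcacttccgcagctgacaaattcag
Jun: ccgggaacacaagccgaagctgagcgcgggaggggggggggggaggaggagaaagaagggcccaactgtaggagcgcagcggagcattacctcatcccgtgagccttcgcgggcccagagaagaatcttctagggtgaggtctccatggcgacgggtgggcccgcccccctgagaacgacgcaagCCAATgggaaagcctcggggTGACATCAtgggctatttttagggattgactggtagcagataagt
Fosl2: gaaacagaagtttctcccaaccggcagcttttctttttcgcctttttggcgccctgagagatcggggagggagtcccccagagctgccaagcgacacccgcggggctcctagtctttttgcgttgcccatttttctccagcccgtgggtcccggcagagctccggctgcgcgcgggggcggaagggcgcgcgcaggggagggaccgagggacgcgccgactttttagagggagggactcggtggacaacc

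The Jun sequence held TGACNTCA starting 45 bases and CCAAT starting 65 bases before the gene start. The former is the element through which Jun is known to act on its own promoter. The Junb sequence held TGACG at 106 and CCAAT at 36 bases before the start, and the Fosl2 sequence held none of the 5 motifs. Among 32851 promoter windows of the same length, 6.75% held TGANTCA, 7.49% TGACNTCA, 17.8% TGACG, 12.4% TATAAA and 33.8% CCAAT. Of the 7 members with a window, 0 held TGANTCA, 1 TGACNTCA, 4 TGACG, 1 TATAAA and 2 CCAAT. A match is a run of letters and was not tested as a binding site, and these arrays measure no binding.

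Junb encodes a Jun protein that activates transcription less strongly than Jun at many sites and can counteract Jun, and in adult muscle fibres of mice it is known for maintaining muscle mass. Its normalized log2 intensity was 6.52, 6.87 and 6.46 in pharyngeal pools 1, 2 and 3 and 7.62, 8.21 and 8.21 in limb pools 1, 2 and 3. Every pharyngeal pool was lower than every limb pool, and limb pool 1 lay between the pharyngeal pools and the other limb pools. The means were 6.62 ± 0.22 and 8.01 ± 0.34 (SD, n = 3), a difference of -1.40 (SE 0.24, 95% interval -1.96 to -0.83, limma adjusted p = 0.0274). In a fit with every kept probe as a row, in which 2.52% of 22633 probes passed, the Junb probe was also the 1 member probe that passed (adjusted p = 0.0304).

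The Junb call was lost in most fits with 1 pool left out, while its direction held in all 6. The count over all genes fell in these fits as well, from 376 to between 58 and 360, and the part of fewer arrays was not tested. When each pool was left out in turn, Junb passed in 1 of 6 fits, the one lacking pharyngeal pool 2 (adjusted p = 0.0385). Differences lay between -1.60 and -1.30 and adjusted p-values reached 0.151 over the 6. Without limb pool 1 the adjusted p was 0.0557, without limb pool 2 it was 0.146 and without limb pool 3 it was 0.151. Without pharyngeal pools 1 and 3 it was 0.0539 and 0.0608. It did not pass when dim probes were kept, which raises the number of genes tested (adjusted p = 0.0535), or with median scaling (0.0807). Without background correction and in the authors' processed table it passed with a smaller difference, -0.94 in each. As fewer satellite cells in a pool and less Junb RNA in each cell cannot be told apart in pooled RNA, the marker sums above stand beside this value, and their part in it was not tested. A further Junb probe, matched to a transcript (AK044253) other than the RefSeq one, was above background on 1 of 3 pharyngeal and 1 of 3 limb arrays and missed the filter. Its difference of 0.41 was not tested.

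Jun, the founding Jun protein and a target of Jun N-terminal kinases, read 10.03, 10.10 and 10.00 in pharyngeal and 10.21, 10.80 and 10.66 in limb pools. The groups did not overlap, and limb pool 1 lay closer to the pharyngeal pools than to the other limb pools. The difference was -0.51 (SE 0.22, 95% interval -1.02 to -0.01) and did not pass over all genes (adjusted p = 0.238). Jund, whose protein can restrain proliferation, read 6.84, 7.11 and 6.32 in pharyngeal and 6.88, 7.33 and 7.72 in limb pools. Its groups overlapped, and the difference of -0.55 had an interval from -1.25 to 0.14 (adjusted p = 0.353).

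Whether Junb moved apart from its paralogues was examined within each array, where a shift common to all probes of an array cancels. The log2 value of Junb minus that of Jun was -3.51, -3.23 and -3.54 in pharyngeal and -2.60, -2.59 and -2.45 in limb pools. It was thus lower by 0.88 in pharyngeal pools, with no overlap, as the mean was -3.43 ± 0.17 against -2.55 ± 0.08 (SD, n = 3). Junb minus Jund was -0.32, -0.24 and 0.13 in pharyngeal and 0.73, 0.88 and 0.49 in limb pools, a difference of -0.84 with no overlap. The exact permutation p was 0.1 for each of the 2 contrasts (2-sided), which is the smallest p that 3 pools against 3 can give, and adjusting over the 2 leaves it at 0.1. The contrasts therefore cannot pass 0.05 in this design, no call is made from them, and they are given as values. They were smaller without background correction (-0.45 for Jun and -0.59 for Jund) and in the authors' processed table (-0.46 and -0.59).

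**Figure D2:**
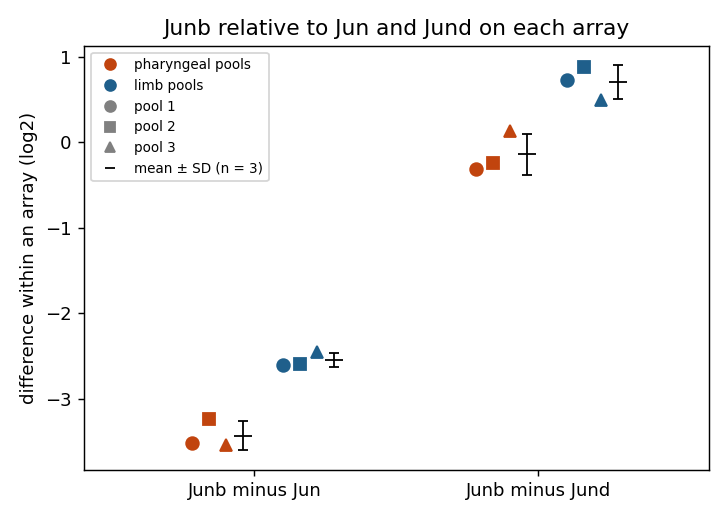
Log2 intensity of Junb minus that of Jun (left) and of Jund (right) on the same array, for 3 pharyngeal and 3 limb pools, with mean and SD (n = 3) as black bars. Both contrasts are lower in each pharyngeal pool than in each limb pool, and only the shift between groups can be read, since the height depends on the probes.

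Fosl2, also called Fra-2, encodes a Fos protein without the strong activation domain of Fos and Fosb, and it was the 1 member whose values were higher in every pharyngeal pool than in every limb pool. The brightest of its 3 probes read 10.75, 10.95 and 10.64 in pharyngeal and 10.21, 10.34 and 10.38 in limb pools, a difference of 0.47 (SE 0.19, 95% interval 0.03 to 0.90, adjusted p = 0.221). The next probe read 8.53, 8.81 and 8.67 against 8.08, 8.15 and 8.23, a difference of 0.52. The dimmest read 7.92, 7.61 and 7.74 against 6.78, 7.22 and 7.10, a difference of 0.72. All 3 probes pointed the same way without overlap, against 25.5% of all kept probes whose groups did not overlap in either direction, but none passed over all probes (lowest adjusted p = 0.126). They target the same gene and share the arrays, so they are not replicates of each other.

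Fos, the prototype of the family, and Fosb, its close relative, did not pass. Fos read 11.43, 11.49 and 11.17 in pharyngeal and 11.65, 11.97 and 11.97 in limb pools, lower in every pharyngeal pool, with a difference of -0.50 (SE 0.20, 95% interval -0.97 to -0.03, adjusted p = 0.223). With an intensity trend in the variance model its adjusted p was 0.0498. Fosb read 11.32, 11.56 and 11.21 in pharyngeal and 10.79, 11.38 and 11.39 in limb pools. Its groups overlapped, the difference was 0.18 (95% interval -0.37 to 0.73, adjusted p = 0.728), and without limb pool 1 it was -0.022. Its direction therefore rested on that pool.

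Atf3, a stress-induced repressor that in mouse satellite cells is known to restrain premature activation, read 10.23, 10.06 and 9.94 in pharyngeal and 10.23, 10.28 and 10.29 in limb pools. The groups did not overlap at full precision, but the highest pharyngeal and the lowest limb value were equal to 2 decimals. The difference was -0.19 (SE 0.18, 95% interval -0.61 to 0.23, adjusted p = 0.612), so that a fall by more than 0.61 or a rise by more than 0.23 lies outside the interval.

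**Figure D3:**
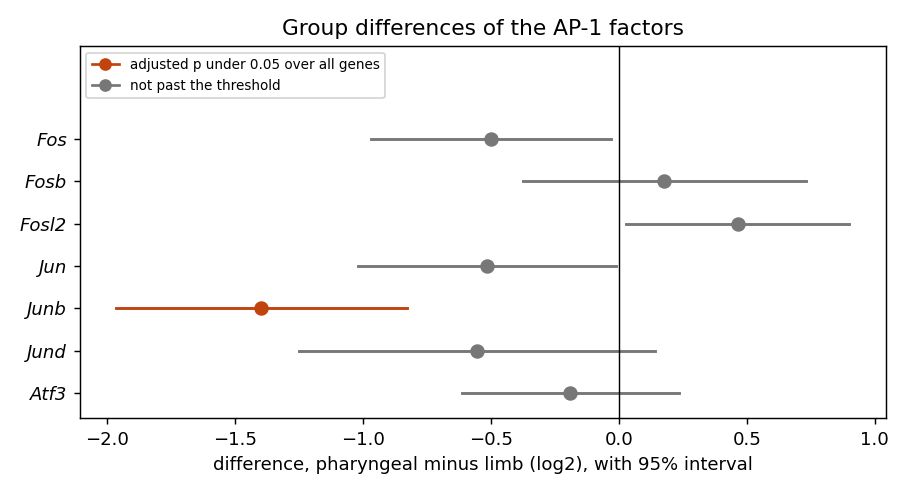
Difference between the group means, pharyngeal minus limb (horizontal axis, log2), of 7 AP-1 genes, with the 95% interval of the moderated fit as a line. Junb (-1.40, in red) is the gene past the adjusted threshold, and the intervals of Fosb, Jund and Atf3 hold 0.

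Within each group the members shared their lowest pool when each gene was read from its brightest probe. By that probe all 7 genes were lowest in pharyngeal pool 3 among the pharyngeal pools and lowest in limb pool 1 among the limb pools. Over all genes tested, pharyngeal pool 3 was the lowest of its group for 29.4% and limb pool 1 for 38.3%, shares taken in the main setting only. The same 7 of 7 held for both pools in the unnormalized intensities, without background correction, with an offset of 50, with median scaling and in the authors' processed table, and with cyclic loess it was 7 of 7 and 6 of 7. In the unnormalized intensities limb pool 1 also had the lowest median of the limb arrays (95.4 against 99.0 and 96.8). The dimmer Fosl2 probes were lowest in pharyngeal pools 1 and 2 instead after normalization, but in pharyngeal pool 3 in the unnormalized intensities. The order of the remaining pools differed between members. Limb pool 1 lay below the mean of limb pools 2 and 3 by amounts from 0.05 for Atf3 to 0.64 for Jund, with 0.59 for Junb and Fosb. Among 21 other immediate early genes, 13 were lowest of the limb pools in limb pool 1 and 10 lowest of the pharyngeal pools in pharyngeal pool 3. The pattern was not particular to these genes, as a list of 15 satellite cell markers gave 13 and 9. The 10 other AP-1 type factors gave 7 and 2, and 20 genes widely described as AP-1 targets gave 6 and 6.

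The same pools also stood apart in their cell type markers. Pharyngeal pool 3 had the highest summed epithelial markers of the pharyngeal pools (8504 against 2729 and 3508). Limb pool 1 had the lowest summed satellite cell markers of the limb pools (5199 against 7439 and 7032) and the highest tenocyte markers (2645 against 1583 and 1481). Their part in the order of the AP-1 values was not tested.

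For each member the 3 genes whose log2 values were most alike over the 6 arrays, by Pearson's r, were sought among all genes tested. Those of Junb were Cd302, a C-type lectin receptor (r = 0.995), Ctso, the lysosomal protease cathepsin O (0.994), and Prr5, a subunit of the kinase complex mTORC2 (0.992). Prr5 fell in pharyngeal pools (-1.23, adjusted p = 0.0478). For Jun they were Hhip, an inhibitor of hedgehog ligands (0.995), the clock-controlled factor Hlf (0.988) and Asb5 (0.982), and for Fosl2 they were Midn (0.997), Ppm1l (0.994) and Myadm (0.992). Jund was most like Scoc (0.998), Socs3, an immediate early inhibitor of cytokine signalling (0.994), and Pde4a (0.988). Fos was most like Ndrg3 (0.991), Zfp960 (0.989) and Hibadh (0.988), Fosb like Sertad1 (0.985), Rpusd2 (0.981) and Fam204a (0.980), and Atf3 like Asb2 (0.995), Peg3 (0.993) and Mmd (0.992). These are the highest of 11261 values for each member, over 6 arrays that share a normalization, and they are given as a description.

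Around the members, the other leucine zipper factors of AP-1 type held 1 gene that passed. Batf, whose protein pairs with Jun proteins and lacks an activation domain of its own, rose in pharyngeal pools. It read 7.06, 7.39 and 7.49 in pharyngeal and 4.61, 4.33 and 4.64 in limb pools, where its probe was above background on 2 of 3 arrays. The difference was 2.79 (SE 0.21, adjusted p = 0.00159), and it passed in each of the 6 fits without 1 pool (adjusted p 0.00293 to 0.0284). The limb values lay near background, so no fold is given. Batf is best known from lymphocytes. The pharyngeal arrays also read higher for epithelial markers (6 of 12 tested, a count partly set by the filter, sums of 2729 to 8504 against 662 to 905). Summed macrophage and myeloid markers were 484 to 1064 in pharyngeal and 188 to 365 in limb pools, although none of 5 tested markers passed. In limma 1 of the 5 had an unadjusted p under 0.05, beside 20.3% of all genes tested. Most of that sum came from Lyz2, which differed by 1.82 (adjusted p = 0.0881). Adgre1, Csf1r, Cd14 and Tyrobp differed by 0.19, 0.01, -0.17 and 0.35, so the sum does not show a rise of the list as a whole. The part of either list in the Batf value was not tested. The other 9 of 10 tested factors of this list did not pass, and the median difference of the list was 0.16.

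The kinases and serum response factors that feed into AP-1 were tested with 18 of 25 genes, of which 1 rose and none fell (median difference -0.06), beside 1.71% of all genes tested that were higher. At an unadjusted p under 0.05 the count was 7 of 18, beside 20.3% of all genes. The risen gene was Map2k3, a kinase that activates p38. It read 7.69, 8.58 and 7.21 in pharyngeal and 6.06, 5.87 and 5.95 in limb pools, with no overlap (1.86, SE 0.34, adjusted p = 0.0332), and it passed in 2 of 6 fits without 1 pool (highest adjusted p = 0.151). Of 14 MAP kinase phosphatases and feedback inhibitors, 11 ATF and CREB factors and 8 genes of AP-1 turnover and coactivation, none passed in limma, with median differences of 0.16, 0.01 and -0.18. At an unadjusted p under 0.05 the counts were 0, 3 and 3, beside 20.3% of all genes tested.

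Of 21 other immediate early genes, 1 rose and none fell, beside 1.71% and 1.62% of all genes tested. The median difference of the list was -0.12. At an unadjusted limma p under 0.05 the count was 4 of 21 (19.0%), beside 20.3% of all genes tested. The risen gene was Arc, which regulates synaptic receptors in neurons, with 8.36, 7.76 and 7.71 in pharyngeal and 6.69, 5.47 and 6.20 in limb pools (1.82, SE 0.35, adjusted p = 0.0370). Arc did not pass in any of the 6 fits without 1 pool (adjusted p 0.0593 to 0.151), and the count of the list was then 0 in each, with 3 to 6 genes at an unadjusted limma p under 0.05.

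Of 28 genes widely described as AP-1 targets 20 were tested, 9 rose in pharyngeal pools, none fell and 11 did not pass. Over all genes tested, 1.71% were higher, and the median difference of the list was 1.08 beside -0.06 over all genes. The list was chosen with earlier results of these data known, so nothing is read from its share or its median. The 4 with the smallest adjusted p were the monocyte attractant Ccl2, the neutrophil attractant Cxcl2, the cytokine Lif and the heme-degrading enzyme Hmox1. Ccl2 read 9.07, 8.97 and 8.97 in pharyngeal and 6.76, 6.17 and 6.19 in limb pools (2.64, SE 0.22, adjusted p = 0.00299). Cxcl2 differed by 3.08 (SE 0.29), Lif by 2.41 (SE 0.25) and Hmox1 by 1.76 (SE 0.21), each without overlap. Ccl2, Cxcl2 and Lif passed in every fit without 1 pool, and Hmox1 did not pass without limb pool 2 (adjusted p = 0.0630) or limb pool 3 (0.0623).

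The other risen genes of that list were Fst, Ccl7, Il6, Plaur and Cd44, with differences of 1.91, 1.57, 1.24, 1.20 and 1.89. The list's count of risen genes was 4, 4 and 3 without limb pool 1, 2 and 3 and up to 8 without a pharyngeal pool. The count over all genes moved as well, from 376 to 79, 63 and 58 without limb pool 1, 2 and 3. Without pharyngeal pool 1, 2 and 3 it was 319, 271 and 360. Many of these genes also respond to NF-kappaB and other factors, and nothing measured here ties them to AP-1. The pharyngeal arrays read higher for 6 of 12 epithelial markers as well, a count partly set by the filter. The part of these markers in the list's values was not tested.

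**Figure D4:**
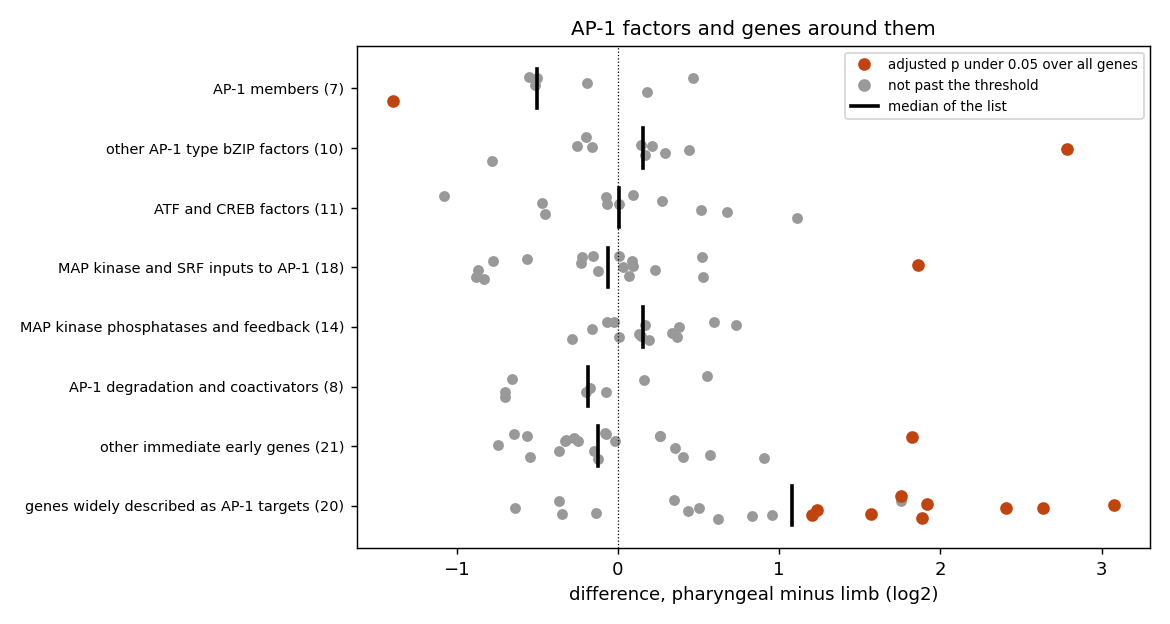
Difference between the groups, pharyngeal minus limb (horizontal axis, log2), of each tested gene in the AP-1 family and in 7 surrounding lists (rows, number tested in brackets), with the list median as a black line and genes past the adjusted threshold in red. Junb is the red point at -1.40 in the top row, Batf the one at 2.79 below it, and 9 of 20 genes of the bottom row are red.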

How the data were processed

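Unnormalized probe intensities, each with a detection p-value, were deposited for the 6 arrays, together with a table of intensities that the authors had processed, on a linear scale. The submitters' processing notes name GenomeStudio 2011.1, and the deposited p-values move in steps of 1 in 936. Although the design text mentions background correction, the unnormalized intensities started at 76.1 to 82.1 and the processed medians were 99.5 to 99.6. The processed values kept the rank order of the unnormalized ones on each array (Spearman's correlation of 1). They gave nearly the same results as quantile normalization without background correction (479 and 480 genes past the threshold, Junb -0.94 in each). How the processed table was made is not stated further, and it served as an alternative close to that setting.

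With limma 3.58.1 in R 4.3.3, the normexp model removed background estimated from the detection p-values (offset 16, which understates folds of dim genes), arrays were quantile normalized and values put on a log2 scale. Of 45281 probes, 34885 had 1 gene symbol and 18 several; Entrez identifiers of 34807 were found in the GRCm38.p6 gene table, and 0 symbols changed. Kept were 22633 probes, and the brightest kept probe represented each of 11262 genes. Differences are pharyngeal minus limb from lmFit and eBayes on group alone (2-sided, Benjamini-Hochberg over all genes or, in the probe fit, all kept probes). SE and the 95% intervals are moderated (prior degrees of freedom 3.45). The fit was tested on simulated data. With 3 arrays a group, their number limits the precision, and p-values measure the spread between pools.

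The members and lists were chosen with earlier results of these data known. Named are all members and their probes, the genes of each list with the smallest adjusted p under 0.05 (at most 4), any AP-1 type factor that passed, and the 3 genes most like each member; Fst, Ccl7, Il6, Plaur and Cd44 were named after their values were seen. Alternatives changed the background model, offset, scaling, table, filter, probe rule, variance model or array weights, added a replicate block, or left out each pool.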

Additional observations from a re-analysis of the deposited data

How the results depend on the processing

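Over the 11 other settings and the 6 fits without 1 pool, Junb stayed lower in pharyngeal pools in all 17 and passed in 8 of 11 and 1 of 6; it did not pass with median scaling (-1.24), no filter on dim probes (-1.40) or the replicate block (-1.40, adjusted p = 0.0660), without 1 pool it lay between -1.60 and -1.30, and its smallest difference was -0.94, without background correction and in the processed table. The count of member genes past the threshold was 0 with median scaling, no filter and the block, 2 with an intensity trend (Fos at -0.50 passed as well) and 0 to 1 without 1 pool; the count of member probes was 0 with median scaling, no filter and the block, and 0 to 1 without 1 pool. Fosb reversed without limb pool 1 (-0.022, the lowest, against a highest of 0.28), and no other member changed direction. Of all genes, 376 passed, against 593 with the trend, 141 with the block and 58 to 360 without 1 pool. Settings chosen after the data were seen gave 3 to 8 risen AP-1 target genes and 0 other immediate early genes (limma, 3 to 6 at an unadjusted p under 0.05) when 1 pool was left out. The values gave no sign that the replicate numbers pair the samples. The deviations from the group means of same-numbered pools correlated at -0.01, -0.01 and 0.0003 across genes. No pharyngeal pool correlated best with its own number. Such correlations cannot show that same-numbered pools shared no animals or day. The Junb contrasts with Jun and Jund kept their direction in all 14 settings run for each (-0.97 to -0.45 and -0.98 to -0.59). The cause of these changes was not tested, and the part of fewer samples or more genes in them was not tested either. The Junb probe was above background on all 6 arrays, but its difference moved with the background correction (-1.40 with it, -0.94 without). The 3 pools a group limit every test.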
